A study of Mus musculus with 2 samples.

Results

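The genes described here are 34 lysosomal proteases, hydrolases, lipid carriers, membrane proteins and proton pump subunits, of 22597 genes counted. They were chosen by symbol, and every one of the 34 symbols has a row in the deposited matrix. The cells were lung monocytes and macrophages of bone marrow chimeras. Donor marrow was Tgfbr2 fl/fl in the control pool and LyzM-Cre Tgfbr2 fl/fl in the Tgfbr2-KO pool, where LyzM-Cre drives recombination in cells of the myeloid lineage. All recipients were IM-DTR mice (CD45.1+CD45.2+) that had been irradiated, whose own interstitial macrophages are killed by diphtheria toxin. Each received 50 ng of the toxin 10 days before the lungs were taken. Donor cells were sorted as CD45.1-CD45.2+Ly6G-SiglecF-CD11b+CD64+ cells of low side scatter. The ages of the mice are not given in the sources used here. Cells of 5 mice were pooled per genotype before the hashtag was added (B0301 for control, B0303 for Tgfbr2-KO), so each genotype is 1 sample with no replicate. No test between genotypes is possible, and the intervals given are exact 95% intervals that cover counting error only, not differences between mice.

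Lysosomes break down proteins, sugars, lipids and engulfed material in an acidic lumen. The vacuolar proton pump (V-ATPase) acidifies that lumen, and most cathepsins and glycosidases work best at its low pH. Many lysosomal genes carry a shared palindromic promoter element that is bound by the transcription factors TFEB, TFE3 and MITF, and macrophages, which digest dying cells and surfactant in the lung, express the group at high levels.

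The promoter element is shown first. The 34 genes were chosen by symbol and not by this element. Since it is known as a feature of lysosomal genes, its share among them is a description and not an independent result. Promoter windows from RefSeq (GRCm38.p6), from 250 bases before to 50 bases after the gene start, were found for 28 of the 34 genes, with none for Asah1, Atp6v0d2, Atp6v1b2, Ctsb, Ctsh and Npc1. The palindrome TCACGTGA was present in 6 of the 28 windows (21.4%), against 1.12% of 27025 genes with a window. With TCACGTG, which is 1 base shorter, on either strand, 10 of 28 genes held a match (35.7%), against 4.29% of all genes. The core CACGTG, which lies inside both longer motifs and is a palindrome itself, was found in 11 of 28 (39.3%), against 8.09%. The 6 genes with the full palindrome were Atp6v0d1, Atp6v0e, Atp6v1a, Ctsa, Ctsd and Gla. Stretches of 60 bases that lie before the annotated gene are printed below for Ctsd and Gla, which hold the full palindrome and whose ratios are among the lowest and highest, and for Lamp1, which held 4 separate TCACGTG matches. They run in the direction of transcription, with the matches in capitals. They lie at chr7:142387897-142387956 (minus strand, Ctsd), chrX:134601187-134601246 (minus strand, Gla) and chr8:13159093-13159152 (plus strand, Lamp1).
Ctsd: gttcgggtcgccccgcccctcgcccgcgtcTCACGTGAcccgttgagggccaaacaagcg
Gla: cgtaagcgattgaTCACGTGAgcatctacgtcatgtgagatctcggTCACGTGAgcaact
Lamp1: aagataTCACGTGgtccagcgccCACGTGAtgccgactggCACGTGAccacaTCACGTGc
A match describes letters in the window and is not evidence that a factor was bound there. Of the genes shown, Gla stood higher in Tgfbr2-KO cells, Ctsd stood lower and Lamp1 was nearly level, with the values given below.

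After filtering there were 1896 control cells (16298452 UMIs in all, median 7785 per cell) and 2674 Tgfbr2-KO cells (30729204 UMIs, median 10278). Tgfbr2, the targeted gene, was counted at 215 UMIs per 1000000 (UPM) in control and 195 UPM in Tgfbr2-KO cells, and 3′ counts need not cover the deleted exon. Macrophage genes of the sort (Fcgr1, which encodes CD64, Itgam, Csf1r, Adgre1 and Mertk) summed to 1360 and 1169 UPM. The pools differed in their mix of cells: 639 Tgfbr2-KO cells and 9 control cells fell in the interferon-activated gate, which takes C1q+ cells only. The gate on fibronectin (Fn1) held 135 control cells and 32 Tgfbr2-KO cells, called Fn1-high here. It takes only C1q+ cells outside the proliferating, dendritic-like and interferon-activated gates. Fn1 was also counted outside it, at 1674 UPM in control and 199 UPM in Tgfbr2-KO low-C1q cells under the monocyte cut-offs. Classical monocyte markers summed to 424 UPM in control and 1294 UPM in Tgfbr2-KO cells.

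Over all cells, the lysosomal genes together took nearly the same share of RNA in both pools, with 1 member lower in the Tgfbr2-KO pool and none higher by the 1.5-fold rule. Their UMIs summed to 17990 UPM (17925 to 18055) in control cells and 19686 UPM (19636 to 19736) in Tgfbr2-KO cells, a log2 ratio of 0.13. Ratios were counted for genes with 100 or more UMIs over both pools and a mean of 50 UPM or more, which 29 of the 34 members reached. Of the 2908 genes counted, 9.22% were at least 1.5-fold higher in the Tgfbr2-KO pool and 6.88% at least 1.5-fold lower. With 29 members, the 0 and 1 called are too few to be set apart from those shares. The members' median log2 ratio was 0.11, and the median of all counted genes was 0.05. Without the cells of the interferon-activated gate the log2 ratio of the sum was 0.06. Cells outside that gate also held its summed markers: in low-C1q Tgfbr2-KO cells with classical monocyte genes they stood at 5410 UPM. In the gate itself they stood at 6021 UPM in Tgfbr2-KO cells. The members that were not counted were Ctsk, Gaa, Neu1, Glb1 and Atp6v0d2.

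**Figure D1:**
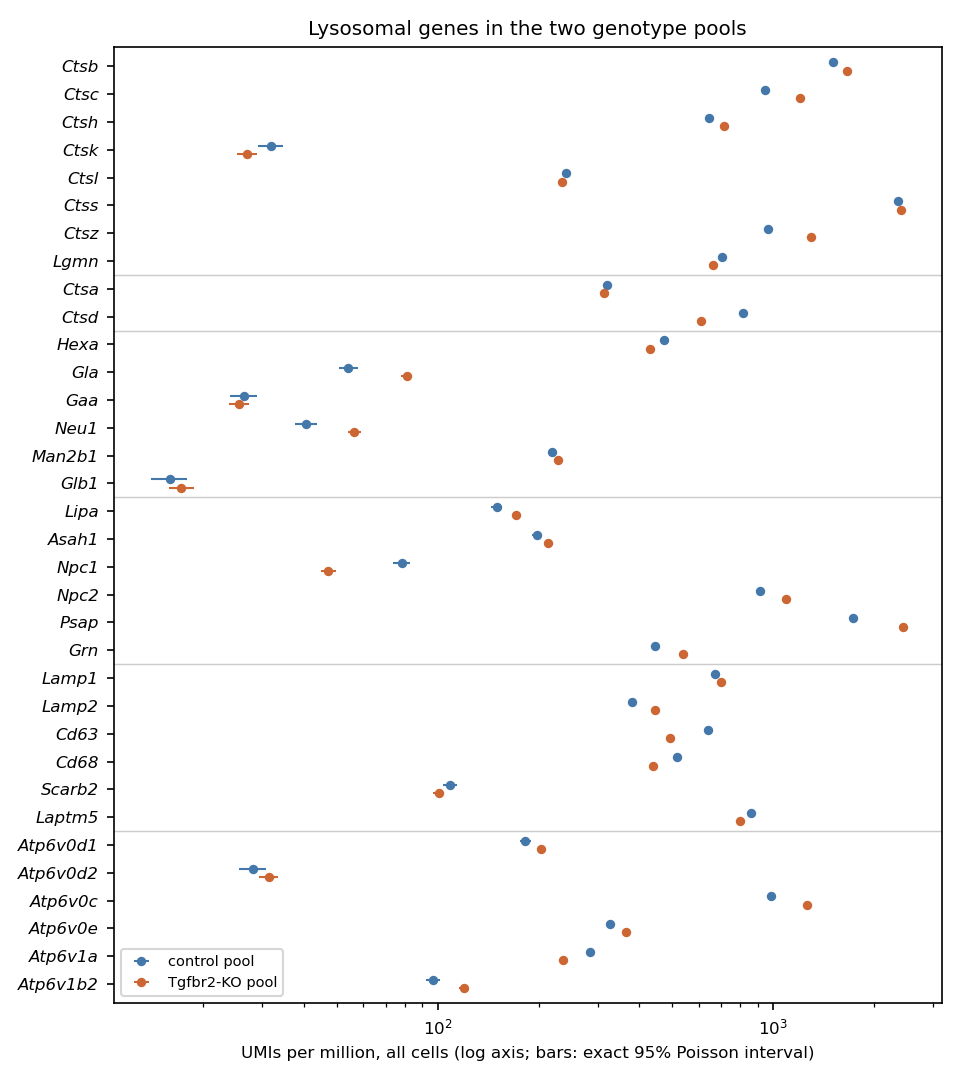
Level of each of the 34 lysosomal genes over all cells of the control pool (blue) and the Tgfbr2-KO pool (orange), in UMIs per 1000000 UMIs on a log axis, with exact 95% Poisson intervals; grey lines separate the roles. Ctss (2362 UPM and 2416 UPM) and Psap (1733 UPM and 2446 UPM) are the highest members, Glb1 the lowest at 15.9 UPM and 17.2 UPM, and Npc1 is the counted member with the widest gap.

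The cysteine cathepsins, papain-like proteases of the lysosome, carried the largest part of the sum. UMIs were counted at the 3′ end, so a level in UPM does not scale with transcript length. Other differences in how well each gene is counted were not checked, so an order of members is an order of counts. Ctss, which trims the invariant chain of MHC class II and is typical of phagocytes, was the highest member in the control pool, at 2362 UPM in control and 2416 UPM in Tgfbr2-KO cells. Ctsb, a broad-acting cathepsin, stood at 1513 and 1661 UPM. These levels differed little between pools, with log2 ratios of 0.03 and 0.13. Ctsz, a carboxypeptidase, stood at 966 UPM in control cells and 1298 UPM in Tgfbr2-KO cells, a log2 ratio of 0.43. Ctsc, which activates granule serine proteases, stood at 949 and 1205 UPM, a log2 ratio of 0.34. Both of these ratios lay under 1.5-fold. Ctsh, an aminopeptidase, stood at 645 and 714 UPM. Legumain (Lgmn), which cleaves after asparagine and processes other cathepsins, stood at 706 and 665 UPM. Ctsl, an endopeptidase, stood at 242 and 236 UPM. For all 3 the distance from equality was within 0.15 on the log2 scale.

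Of the proteases of other classes, cathepsin D (Ctsd), the main aspartic protease of the lysosome, stood at 816 UPM (802 to 830) in control cells and 610 UPM (601 to 619) in Tgfbr2-KO cells, a log2 ratio of -0.42. Without the cells of the Fn1-high gate that ratio was -0.01. The serine carboxypeptidase Ctsa, which also protects neuraminidase and beta-galactosidase, stood at 321 and 314 UPM. Neither passed 1.5-fold.

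Among the glycosidases, the alpha-galactosidase Gla, the enzyme lacking in Fabry disease, had the highest ratio of all counted members. It stood at 54.2 UPM (50.7 to 57.9) in control and 80.8 UPM (77.7 to 84.1) in Tgfbr2-KO cells, a ratio of 1.49 (1.38 to 1.61), just under the 1.5-fold rule. It passed with cells of at least 3000 UMIs and at most 5% mitochondrial UMIs, and with a hashtag probability of at least 0.99. Neuraminidase 1 (Neu1), which removes sialic acid, stood at 40.6 and 56.6 UPM, a log2 ratio of 0.48, and fell under the count minimum. Hexa, an alpha subunit of beta-hexosaminidase, stood at 473 and 429 UPM. Man2b1, the lysosomal alpha-mannosidase, stood at 220.0 and 229 UPM. The remaining glycosidases were rare transcripts: Gaa, which degrades glycogen, was counted at 26.4 and 25.6 UPM, and beta-galactosidase (Glb1) at 15.9 and 17.2 UPM.

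The genes for lipid and sphingolipid handling held both the member with the lowest ratio and one of the highest. Npc1, the membrane protein that exports cholesterol from the lysosome, stood at 78.1 UPM (73.9 to 82.5) in control and 47.3 UPM (44.9 to 49.8) in Tgfbr2-KO cells. Its ratio was 0.61 (0.56 to 0.65), a log2 ratio of -0.72, and it was the single member past 1.5-fold over all cells. The call was lost without the cells of the Fn1-high gate (log2 ratio -0.57) and with every cell thinned to 3000 UMIs (-0.56). Its soluble partner Npc2, which hands cholesterol to Npc1, stood at 913 and 1095 UPM, on the other side of equality with a log2 ratio of 0.26. Psap, the precursor of the saposins that present sphingolipids to their hydrolases, stood at 1733 UPM (1713 to 1753) in control cells and 2446 UPM (2429 to 2464) in Tgfbr2-KO cells, a ratio of 1.41. It was second to Ctss in the control pool and the highest member in the Tgfbr2-KO pool. Progranulin (Grn) stood at 444 and 539 UPM. Lysosomal acid lipase (Lipa) stood at 150 and 171 UPM, and acid ceramidase (Asah1) at 198 and 214 UPM.

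The membrane proteins as a role summed to 3182 UPM in control and 2975 UPM in Tgfbr2-KO cells. The tetraspanin Cd63, found on late endosomes and secretory vesicles, stood at 641 UPM (629 to 654) and 492 UPM (484 to 500.1), a log2 ratio of -0.38. Cd68, the macrophage member of the LAMP family, stood at 518 and 440 UPM. Lamp1, a main structural glycoprotein, stood at 672 and 700.1 UPM, and its relative Lamp2 at 380 and 445 UPM. Scarb2, which carries glucocerebrosidase to the lysosome, stood at 109 and 101 UPM, and Laptm5, a transmembrane protein of blood cells, at 862 and 798 UPM. No membrane protein passed 1.5-fold.

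The proton pump subunits summed to 1908 UPM in control cells and 2216 UPM in Tgfbr2-KO cells. The c subunit of the membrane ring, Atp6v0c, made up most of that sum, at 987 and 1260 UPM, a log2 ratio of 0.35. The catalytic A subunit, Atp6v1a, lay on the other side of equality, at 285 and 237 UPM (log2 ratio -0.26), while its partner in the catalytic head, Atp6v1b2, stood at 97.0 and 120 UPM (0.30). Atp6v0e stood at 328 and 364 UPM and the widely expressed d subunit Atp6v0d1 at 183 and 203 UPM. Of the 5 counted subunits 4 lay above equality and Atp6v1a below it, and none passed 1.5-fold.

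Ratios within a state were computed in gates on marker genes, none of which is a member. CD206- cells were gated on Cd207, H2-M2, Col14a1 and Ms4a7. CD206+ cells were gated on Mrc1, which encodes CD206, with Folr2, Lyve1, Cd163, Cd209f and Cd209g. In CD206- cells (900 control and 601 Tgfbr2-KO cells) none of 29 counted members passed 1.5-fold, and all log2 ratios lay between -0.29 (Ctsd) and 0.36 (Gla). The background there was 2.9% of genes higher and 1.77% lower. The 3 counted members with the highest ratios were Gla (46.0 and 59.0 UPM), Psap (1734 and 2161 UPM) and Lgmn (678 and 843 UPM). The 3 with the lowest were Ctsd (545 and 446 UPM), Scarb2 (109 and 96.1 UPM) and Npc1 (58.1 and 51.7 UPM). In this state 25 of 29 ratios were above 1 and the median log2 ratio was 0.11, against 0.06 for all genes.

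In CD206+ cells (463 control and 566 Tgfbr2-KO cells), 1 of 30 counted members was higher and 1 lower, against a background of 3.56% and 5.03%. Neu1 stood at 46.8 UPM in control and 71.2 UPM in Tgfbr2-KO cells, a ratio of 1.52 (1.27 to 1.83). Npc1 stood at 81.0 and 51.9 UPM, a ratio of 0.64 (0.54 to 0.76). With the gate cut-offs halved neither passed (log2 ratios 0.52 and -0.49), and in clusters of cells made without the members Neu1 did not pass (0.58). Ctsd, which was lower over all cells and in CD206- cells, was higher here: 509 and 700.1 UPM, or 0.46 on the log2 scale. Ctsl stood at 247 and 338 UPM, a log2 ratio of 0.45. Neither direction held in the clusters, with 175 control and 596 Tgfbr2-KO cells, where Ctsd stood at 648 and 626 UPM (log2 ratio -0.05) and Ctsl at 320 and 280 UPM (-0.19). Atp6v1a, at 474 and 407 UPM in the gate, passed 1.5-fold in the clusters, at 614 and 396 UPM (-0.63). The median log2 ratio of the members was 0.15, against 0.01 for all genes. The gate and the clusters took different cells, each cluster being named for the state of most of its cells. Of the gated cells, 429 and 128 lay in CD206+ clusters, while 239, 111 and 60 lay in CD206- clusters. The gate's markers summed to 3097 UPM in its control cells and 4096 UPM in its Tgfbr2-KO cells. The part of these differences in the ratios was not tested.

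**Figure D2:**
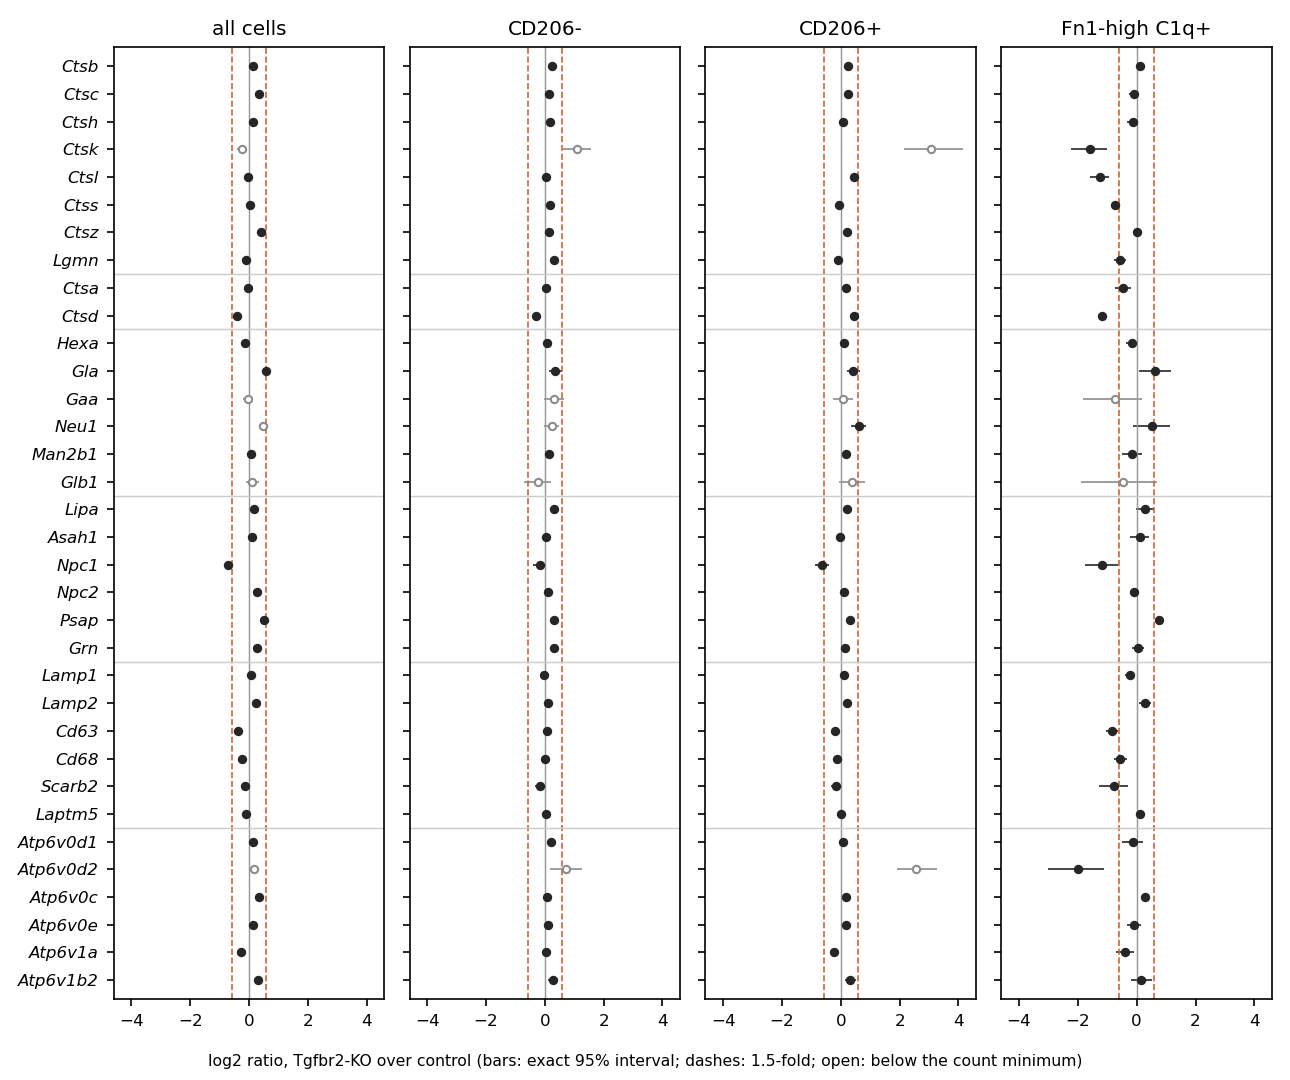
Log2 ratio of Tgfbr2-KO over control UMIs per 1000000 UMIs for each member, in all cells and in the CD206-, CD206+ and Fn1-high C1q+ gates, with exact 95% intervals; dashed lines mark 1.5-fold and open points are below the count minimum. Most points lie between the dashed lines in the first 3 panels, while the Fn1-high panel, with 32 Tgfbr2-KO cells, spreads from -2.00 (Atp6v0d2) to 0.74 (Psap).

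Fn1-high C1q+ cells were compared with little material, 135 control and 32 Tgfbr2-KO cells. Here 8 of 32 counted members were lower and 2 higher in the Tgfbr2-KO pool, where 17.2% of all genes were lower and 12.4% higher. The lower members were Atp6v0d2, Ctsk, Ctsl, Ctsd, Npc1, Cd63, Scarb2 and Ctss, and the higher ones Psap and Gla. Ctss stood at 4694 and 2797 UPM, Ctsd at 2383 and 1050 UPM, and Psap at 2085 and 3493 UPM. These directions rested on which cells the gate took. In the cluster that held most Fn1-high cells, with 257 control and 43 Tgfbr2-KO cells, 6 of the 8 lower members lay at or above equality: Ctss at 4716 and 5816 UPM, Ctsd at 2611 and 2621 UPM, Cd63 at 808 and 1124 UPM, Ctsk at 143 and 177 UPM, Ctsl at 456 and 502 UPM and Atp6v0d2 at 115 and 127 UPM. Psap was the single member past 1.5-fold there, at 2431 and 4353 UPM. That cluster was another mix of cells, of which 134 were Fn1-high by the gate. It also held 62 low-C1q cells under the monocyte cut-offs, 53 CD206- cells and 23 C1q+ cells under all other cut-offs. Fn1 itself stood at 3545 UPM in the gated control cells and 1714 UPM in the gated Tgfbr2-KO cells, and classical monocyte markers at 211 and 800 UPM. Their part in the ratios was not tested.

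Weighting the Tgfbr2-KO level of each state by that state's share of the control pool's UMIs left no member past 1.5-fold, against 4.3% of genes higher and 3.06% lower. Npc1 came to 53.2 UPM against 78.1 UPM, a log2 ratio of -0.55 in place of -0.72. Cd63 moved from -0.38 to -0.12, and Ctsd from -0.42 to -0.39. The weighted Ctsd level includes the Fn1-high gate, where 32 Tgfbr2-KO cells gave a log2 ratio of -1.18. In the cluster that held most Fn1-high cells the Ctsd log2 ratio was 0.005. The part of that gate in the weighted Ctsd ratio was not tested. Psap came to 2268 UPM, a log2 ratio of 0.39 in place of 0.50, and Gla to 73.9 UPM, 0.45 in place of 0.58. The summed ratio was 1.07.

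Across states the members varied about as often as other genes. Among the 5 states with at least 100 control cells, 12 of 31 counted members differed at least 2-fold between the highest and the lowest state, against 35.9% of all genes. Among the 7 such states of the Tgfbr2-KO pool, 14 of 29 did, against 45.5%. Some of these states are residual gates: low-C1q cells under the monocyte cut-offs, and C1q+ cells under the cut-offs of all other gates. Markers were not absent from them. Classical monocyte markers summed to 167 UPM in control and 473 UPM in Tgfbr2-KO low-C1q cells of this kind. In the residual C1q+ cells they summed to 506 and 549 UPM. The residual low-C1q gate drew cells from several clusters. It held structural lung cell markers at 73.4 UPM in control and 680 UPM in Tgfbr2-KO cells, against 57.4 and 116 UPM over all cells. Its median depth was 3832 UMIs in control and 13504 UMIs in Tgfbr2-KO cells, against 7785 and 10278 UMIs over all cells. The part of these markers and of depth in the levels was not tested.

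**Figure D3:**
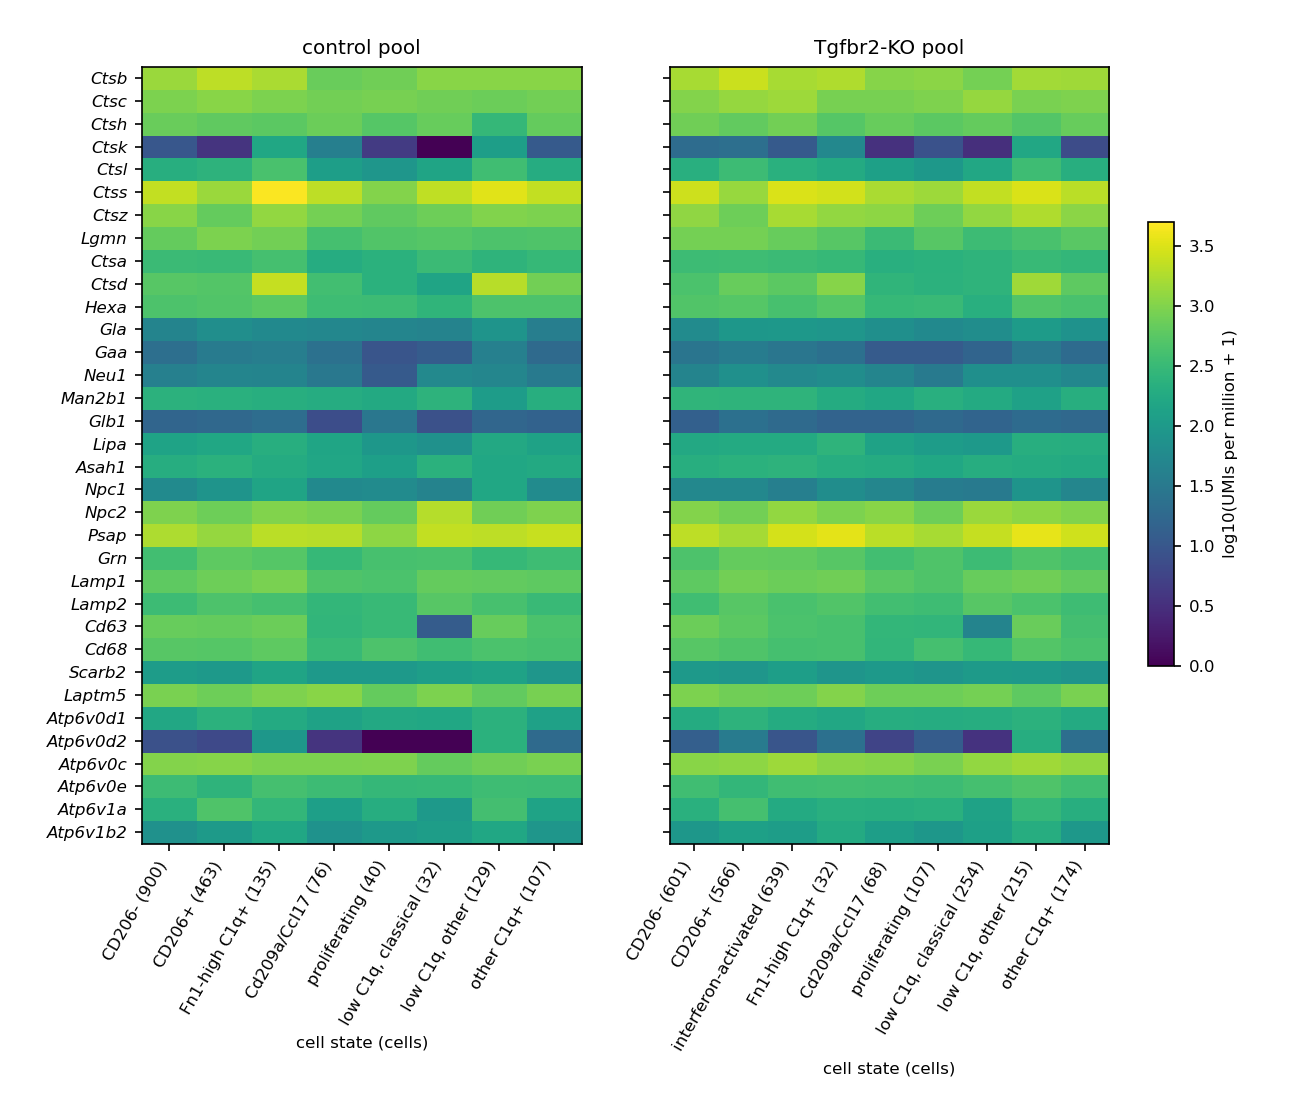
Levels of the 34 members by gated cell state (cell numbers in parentheses) in the control pool (left) and the Tgfbr2-KO pool (right), as log10 of UPM plus 1; states with at least 30 cells are shown. Ctsd, Ctsk and Atp6v0d2 are bright in Fn1-high control cells and in low-C1q cells under the monocyte cut-offs. Cd63 is dark in low-C1q cells with classical monocyte genes.

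The proteases had different highest states in the control pool. Ctss stood at 4694 UPM in Fn1-high cells and 3399 UPM in low-C1q cells under the monocyte cut-offs. It stood at 2292 UPM in CD206- cells and 1389 UPM in CD206+ cells. Ctsd had the same order at its ends, with 2383 UPM in Fn1-high cells, 2020 UPM in the low-C1q cells, 545 UPM in CD206- and 509 UPM in CD206+ cells. Ctsb, which did not span 2-fold, was highest in CD206+ cells at 2118 UPM, followed by Fn1-high cells at 1682 UPM and CD206- cells at 1390 UPM. It was lowest in the residual C1q+ cells (1097 UPM) and the low-C1q cells (1117 UPM). Ctsl was highest in Fn1-high cells (430 UPM) and Ctsh in CD206- cells (711 UPM). Atp6v1a, the catalytic pump subunit, was highest in CD206+ cells at 474 UPM, against 220 UPM in CD206- and 141 UPM in residual C1q+ cells. Grn was highest in CD206+ cells too (606 UPM), and Man2b1 in CD206- cells (239 UPM). Npc1 stood at 159 UPM in low-C1q cells under the monocyte cut-offs, 142 UPM in Fn1-high cells and 58.1 UPM in CD206- cells. The other control members past 2-fold were Gla, Atp6v1b2, Ctsk and Atp6v0d2.

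The Tgfbr2-KO pool, with its monocyte-rich and interferon-activated cells, showed further contrasts. Cd63 stood at 729 UPM in CD206- cells, 590 UPM in CD206+ cells, 453 UPM in interferon-activated cells and 45.3 UPM in low-C1q cells with classical monocyte genes, a 16.1-fold span. The 32 control cells of that last kind held Cd63 at 10.9 UPM, so the gene was low in both pools there. The Tgfbr2-KO cells of that monocyte gate also held the interferon-activated gate's markers at 5410 UPM, against 6021 UPM in the interferon-activated gate. Neutrophil markers stood at 698 UPM there, against 138 UPM over all Tgfbr2-KO cells. The part of these markers in the levels was not tested. In the same monocyte gate Ctsb stood at 842 UPM, against 2510 UPM in CD206+ cells. Lgmn (346 and 856 UPM), Hexa (214 and 532 UPM) and Atp6v1a (132 and 407 UPM) had the same end states. Lipa was lowest in the monocyte gate as well, at 100.1 UPM. The members together took 1.70% of UMIs in the monocyte gate, against 1.94% in CD206- and 1.90% in CD206+ cells. Not every member was low there: Npc2 stood at 1372 UPM and Ctsc at 1319 UPM, against 824 and 1314 UPM in CD206+ cells. Of the states with at least 100 cells, proliferating cells held the lowest levels of Ctsd (238 UPM), Ctsl (92.8 UPM), Ctsz (761 UPM) and Neu1 (32.5 UPM). The members took 1.39% of UMIs in proliferating Tgfbr2-KO cells and 2.32% in low-C1q cells under the monocyte cut-offs. Ctss, Psap, Man2b1 and Atp6v1b2 also passed 2-fold.

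The interferon-activated Tgfbr2-KO cells had too few control counterparts (9 cells) for a comparison. Their members summed to 21684 UPM, against 19383 UPM in CD206- and 18990 UPM in CD206+ cells of the same pool. Ctss stood at 3053 UPM, Psap at 2865 UPM, Ctsz at 1628 UPM, Ctsc at 1452 UPM and Atp6v0c at 1427 UPM. Each of these 5 was higher than in either CD206- or CD206+ cells of that pool, where Ctsz, for example, stood at 1222 and 776 UPM. Their median depth was 14238 UMIs, against 8038 and 8385 UMIs in those states, and its part was not tested. Npc1 at 38.7 UPM and Atp6v1a at 179 UPM were lower than in both.

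Ctsk and Atp6v0d2 were the most restricted members. Ctsk encodes cathepsin K, the collagen-degrading protease of osteoclasts, and lies next to Ctss on chromosome 3 (95499210 to 95509387 and 95526786 to 95556405 of GRCm38.p6). Atp6v0d2 encodes the d subunit of the pump that osteoclasts and some macrophages use (chromosome 4, 19876838 to 19922566). At least 1 Ctsk UMI was seen in 117 of 1896 control cells and 144 of 2674 Tgfbr2-KO cells, and at least 1 Atp6v0d2 UMI in 121 and 126 cells. The pair was often found in the same cells: 47 control cells and 62 Tgfbr2-KO cells held both. Of the cells with Ctsk, 40.2% in the control pool and 43.1% in the Tgfbr2-KO pool also held Atp6v0d2, against 6.38% and 4.71% of all cells. Cells with Ctsk were deeper, at a median of 13009 and 17223 UMIs, and the part of depth in this overlap was not tested. For comparison, 5 of 254 low-C1q Tgfbr2-KO cells with classical monocyte genes held a Ctsk UMI (1.97%, median depth 10688 UMIs). Whether those UMIs are background was not tested.

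The cells that carried both genes differed in Fn1 and Gpnmb between the pools, in the same directions as all cells did. The largest share of Atp6v0d2 UMIs lay in low-C1q cells under the monocyte cut-offs in both pools (42.9% in control, 58.5% in Tgfbr2-KO). Fn1-high C1q+ cells held 37.3% of the control UMIs. Of the control pool's Ctsk UMIs, 59.1% lay in Fn1-high C1q+ cells. Of the Tgfbr2-KO pool's, 55.3% lay in low-C1q cells under the monocyte cut-offs. In control cells holding both genes, Fn1 stood at 2979 UPM and Gpnmb, a glycoprotein of lipid-laden macrophages, at 209 UPM. In Tgfbr2-KO cells holding both, Fn1 stood at 297 UPM and Gpnmb at 1491 UPM. Over all cells, Fn1 stood at 534 UPM in control and 81.9 UPM in Tgfbr2-KO cells, and Gpnmb at 21.6 and 93.6 UPM. Among the cells holding both genes, Ctsd was high in both pools, at 3158 and 3306 UPM, about the same level. Npc1 stood at 174 and 121 UPM in them. Defining markers of alveolar macrophages (Siglecf, Ear1, Marco, Car4, Krt79) summed to 17.8 and 14.8 UPM in the low-C1q cells under the monocyte cut-offs. Over all cells they summed to 3.01 and 3.81 UPM. Of these 5 markers, 1 was at 0 in those low-C1q cells in the control pool and 3 in the Tgfbr2-KO pool. Their part in the result was not tested.

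**Figure D4:**
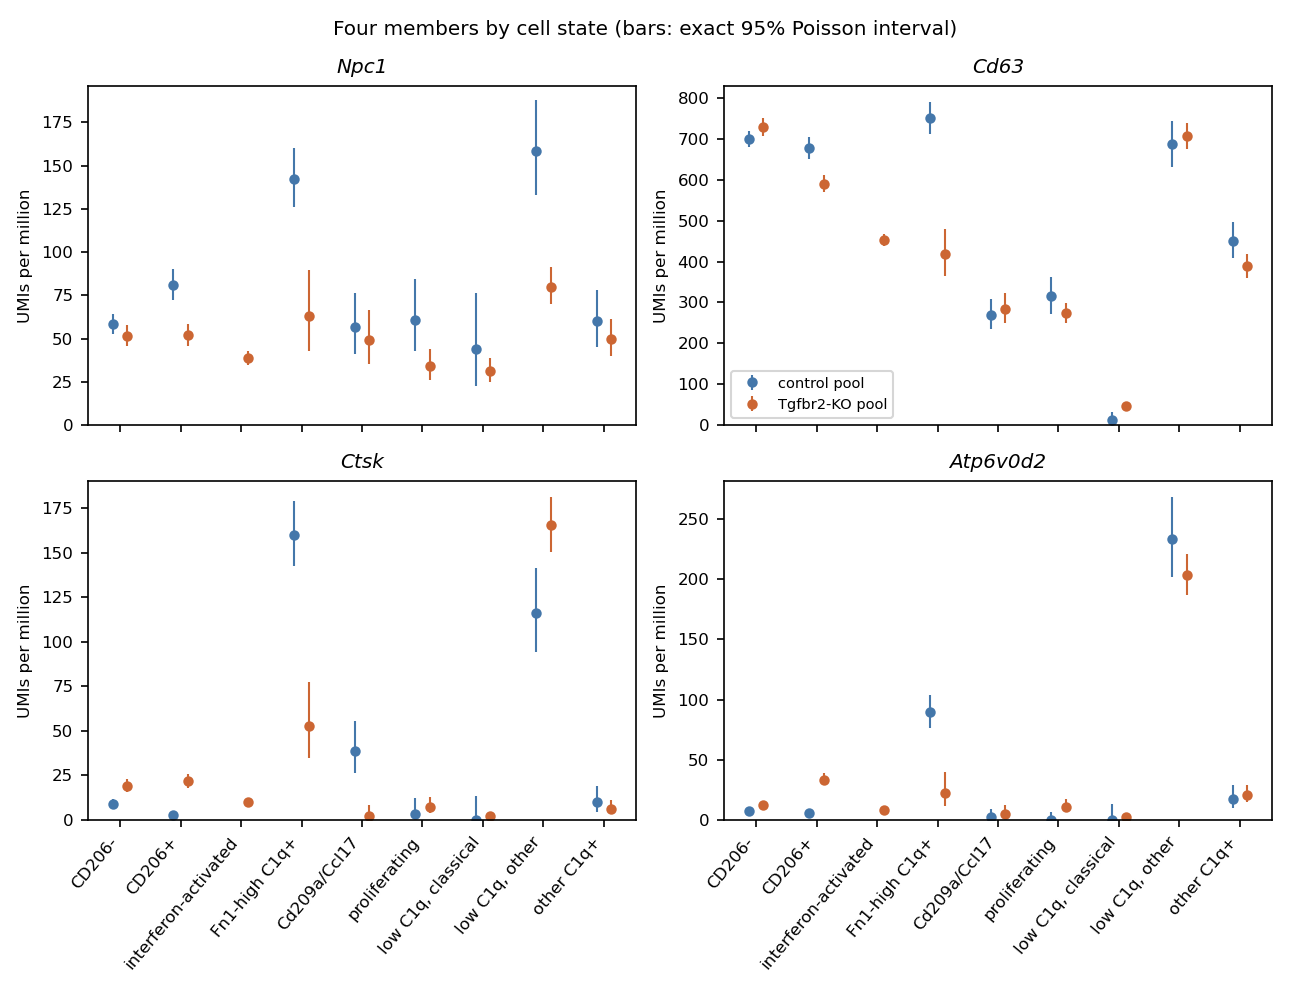
Npc1, Cd63, Ctsk and Atp6v0d2 by gated cell state in the control pool (blue) and the Tgfbr2-KO pool (orange), in UMIs per 1000000 UMIs with exact 95% Poisson intervals; each point is 1 state of at least 30 cells in 1 pool. Ctsk and Atp6v0d2 are above 50 UPM in Fn1-high C1q+ cells and low-C1q cells under the monocyte cut-offs, except Atp6v0d2 in Fn1-high Tgfbr2-KO cells (22.4 UPM).

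In CD206+ cells the 2 genes were below the count minimum, and single cells decided their levels. Ctsk was counted with 10 UMIs in control and 113 UMIs in Tgfbr2-KO cells, 109 of the latter in 10 cells. Atp6v0d2 was counted with 22 and 175 UMIs, 154 of the latter in 10 cells. After every cell was thinned to 3000 UMIs, Ctsk was seen in 2 of 449 control and 4 of 553 Tgfbr2-KO CD206+ cells, shares of 0.445% and 0.723%. The share in the monocyte gate of the Tgfbr2-KO pool was 1.20% after the same thinning, above both CD206+ shares. A share of cells leaves out how many UMIs each cell held, so it cannot tell background from expression in single cells.

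The other genes of the lysosome were examined through 6 lists with 101 genes in the matrix, of which 48 were counted over all cells. Of these, 3 were higher and 4 lower in the Tgfbr2-KO pool, beside the backgrounds of 9.22% and 6.88%, and their median log2 ratio was 0.13. None of 11 counted pump subunits, 5 membrane proteins and transporters, and 4 enzyme sorting genes passed 1.5-fold. Of 16 hydrolases 3 were higher and 1 lower. Naaa, an amidase of fatty acid ethanolamides, stood at 117 and 273 UPM. Gm2a, the GM2 ganglioside activator, stood at 222 and 338 UPM, and the thioesterase Ppt1 at 104 and 157 UPM. Without the cells of the interferon-activated gate, Gm2a (log2 ratio 0.54) and Ppt1 (0.33) did not pass 1.5-fold.

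Of 3 counted protease inhibitors, 2 were lower. Cystatin C (Cst3), a secreted inhibitor of cysteine cathepsins, stood at 5232 and 3316 UPM, and Serpinb6a at 161 and 95.3 UPM. Neither passed without the cells of the interferon-activated gate (log2 ratios -0.51 and -0.51), in CD206- cells (-0.38 and -0.14) or in CD206+ cells (-0.50 and 0.14). Of 9 counted regulators, Mitf, a transcription factor of the TFEB family, stood at 269 UPM in control and 135 UPM in Tgfbr2-KO cells, a log2 ratio of -0.99. Mitf was also lower in CD206- cells (208 and 139 UPM) and CD206+ cells (243 and 155 UPM). Its relatives Tfeb (20.5 UPM in control cells) and Tfe3 (50.0 and 38.9 UPM) were below the count minimum. Naaa was higher in CD206- (81.3 and 146 UPM) and CD206+ cells (83.0 and 160 UPM).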

How the data were processed

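One droplet library of 3′ RNA and one hashtag library were made from the same pooled cells. Cell Ranger 8.0, Seurat 5.1.0 and GRCm38 are named in the submitters' processing notes, with no annotation version. The authors deposited a raw count matrix of unique molecular identifiers (UMIs), genes by barcodes. The table of hashtag calls holds, per the file headers, the fraction of assignment probability per call, and its deposited hashtag columns equalled the log10 of the hashtag count plus 1. Other deposited columns hold names.

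Of 4887 called cells, 4671 carried 1 hashtag and 4570 were kept (at least 1000 UMIs, at least 500 genes, at most 10% mitochondrial UMIs). The 96 hashtag multiplets were left out, and doublets within a pool were not looked for. UMIs were summed per pool and state and scaled per 1000000, with exact Poisson and conditional binomial intervals (scipy 1.17.1). Genes were called at 1.5-fold without a test, since there is 1 pool per genotype. Cells were gated in turn on summed markers per 10000 UMIs (for example Fn1 of at least 5, CD206+ markers of at least 10, C1q below 15), with cut-offs set from the marker distributions of both pools. Clusters made without the members (scanpy 1.11.5) served as an alternative. Judged by Cxcl9, Fn1 and Ly6c2 in CD206- cells, free RNA was at most 1.15% of UMIs in the control pool and 4.10% in the Tgfbr2-KO pool. All members are given. Every member past 1.5-fold is named, with the 3 highest and 3 lowest where fewer pass, as is every member past 2-fold across states of at least 100 cells, and at most 10 other lysosomal genes, of which 1 is not reported here. The members and lists were chosen with earlier results of these data known. The ratio script was checked on simulated data. Promoter windows come from RefSeq (GRCm38.p6).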

Additional observations from a re-analysis of the deposited data

Results flagged for a closer look

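Cells left out of the comparisons held lysosomal transcripts at about the level of the kept cells. In the 96 hashtag multiplets the members made up 1.88% of UMIs (1.86 to 1.90), above the control pool's 1.80% and below the Tgfbr2-KO pool's 1.97%; these droplets mix cells of both pools. In 54 blank and 66 unassigned cells the shares were 1.63% and 1.69%.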

How the results depend on the processing

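The log2 ratio of summed member UMIs (0.13) stayed above 0 under the alternatives that were run. It was 0.079 with scaling by the median ratio, 0.0774 by the trimmed mean and 0.12 without mitochondrial and ribosomal genes. It was 0.11 with cells weighted alike, 0.15 with the stricter cell filter and 0.0945 after thinning. Without the cells of the interferon-activated gate it was 0.0642, and without those of the Fn1-high gate 0.20. The count of members past 1.5-fold over all cells (1) was 2 with the stricter cell filter, 2 at a hashtag probability of at least 0.99, 0 after thinning and 0 without Fn1-high cells. At the control mix of states, 1 member passed in place of 0 with median scaling, 1 with the trimmed mean, 1 with cells weighted alike and 1 with halved gate cut-offs. In CD206+ cells 4 passed in place of 2 without the filter on low counts and 0 with halved cut-offs, and in CD206- cells 2 in place of 0 without that filter. Across control states 6 members in place of 12 passed 2-fold with the stricter cell filter, 7 after thinning and 7 with halved cut-offs. With clusters in place of gates, 1 member in place of 10 passed in Fn1-high cells, and the log2 ratios of Ctsk (0.30), Ctsl (0.14), Ctss (0.30), Ctsd (0.0051), Cd63 (0.47) and Atp6v0d2 (0.14) changed sign. In CD206+ clusters Ctsl (-0.19) and Ctsd (-0.05), which were not called in the gate, changed sign too, and Atp6v1a (-0.63) gained a call. The alternatives' settings differ in cells or genes taken, and beyond that the cause was not tested. Of 371 recomputed values of named members, 285 stayed within the counting interval of the main ratio and on its side of 1.5-fold. Another 60 moved outside that interval, 15 fell under 1.5-fold, 5 passed it, and 6 called values reversed. The sign changes of Ctsl and Ctsd in CD206+ cells are among those that moved. Dropping the filter on low counts leaves every ratio as it was, so all values of that setting are among the 285. The labels used the log2 ratio alone and not the count minimum. Gla, Scarb2 and Atp6v0d2 in Fn1-high cells thus kept their ratio after thinning but were not called there. No paired analysis was possible because each genotype is 1 pool, and no replicate could be left out. Depth limits the rarest members: Ctsk, Gaa, Neu1, Glb1 and Atp6v0d2 stayed under the count minimum over all cells.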

Other observations

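Gpnmb, Fabp5 and Spp1, genes of lipid-handling macrophages, gated 87 control and 245 Tgfbr2-KO cells at 10 or more per 10000 UMIs. These cells held more of the proteases Ctsd, Ctsk and Ctss than all cells did. The members given here were picked, and the others are not given for this gate. This gate cuts across the states above and was not among the planned comparisons. Ctsd stood at 3506 UPM in its control cells and 2065 UPM in its Tgfbr2-KO cells, against 816 and 610 UPM over all cells. Ctsk stood at 256 and 155 UPM and Atp6v0d2 at 203 and 209 UPM. Psap stood at 2938 and 4613 UPM, Ctss at 4955 and 4107 UPM, and Npc1 at 157 and 80.7 UPM. Over all cells Ctsk stood at 31.8 and 27.0 UPM, and Ctss at 2362 and 2416 UPM.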
